A study of Mus musculus with 60 samples.

Results

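The 10 genes described here, Romo1, Adprh, Bmyc, Hnrnpc, Kansl2, Lrrtm1, Fam107a, Apbb1ip, Papss2 and Igfn1, were chosen by their read counts in the prefrontal cortex, which differed between mice that lacked both Glo1 and dietary vitamin B6 (VB6) and mice that lacked neither. They are 10 of the 21999 genes in the deposited tables, and all 10 were present in both the count table and the RPKM table. None lies on chromosome 17, which carries Glo1. The study made 60 bulk RNA-seq libraries from 20 mice, with 1 library per mouse for each of 3 brain regions, namely hippocampus, striatum and prefrontal cortex. Mice were wild type (WT) or carried a knockout (KO) of Glo1, and from 8 to 12 weeks of age their food held 1.4 mg of VB6 per 100 g (normal) or 5 µg per 100 g (lacking). The 4 combinations, named WT-normal, WT-lacking, KO-normal and KO-lacking after genotype and diet, held 5 mice each. The labels give no strain, allele or breeding scheme for the knockout. All KO libraries carry batch number 1 and all WT libraries batch number 2 in the labels, so that genotype and batch cannot be told apart in any comparison of KO with WT. In bulk tissue, fewer cells of a type and less RNA per cell cannot be told apart either.

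Glo1 encodes glyoxalase I, the enzyme that clears methylglyoxal, a reactive by-product of glycolysis. VB6 is the source of pyridoxal 5′-phosphate, the cofactor of many enzymes of amino acid and neurotransmitter metabolism, and some of its forms react with carbonyl compounds such as methylglyoxal. The 10 genes belong to no common pathway. Romo1 encodes a small protein of the inner mitochondrial membrane that takes part in protein import through the TIM23 translocase. Adprh removes ADP-ribose from arginine residues of proteins. Bmyc encodes a short relative of Myc without the DNA-binding end of that protein. Hnrnpc binds uridine-rich stretches of nascent RNA, and Kansl2 is a subunit of the NSL histone acetyltransferase complex. Lrrtm1 is a postsynaptic adhesion protein that binds neurexins. Fam107a is an actin-binding protein known for its induction by stress and glucocorticoids and for its abundance in astrocytes. Apbb1ip, also called RIAM, links the small GTPase Rap1 to talin and integrins and is in the brain mainly a gene of microglia. Papss2 makes the sulfate donor PAPS. Igfn1 encodes a protein with immunoglobulin and fibronectin domains known from the Z-disc of skeletal muscle.

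Sequence before the annotated starts of the genes, some of which lie within the gene, was read from RefSeq (GRCm38.p6) as 250 bases before each start. These tables held 12 such windows for all of the 10 genes but Adprh, Fam107a having 3 and Papss2 2. The windows were searched on both strands for 6 motifs. The glucocorticoid response element, searched as GNACA and TGTNC with 3 bases between them, was present in 0.387% of all 32851 windows. Among the 10 genes it occurred before starts of Fam107a alone, in 2 windows that cover nearly the same bases inside the gene. The CCAAT box (CCAAT) was in 33.8% of all windows and in 3 of the 12, those of Hnrnpc, Kansl2 and the second start of Papss2. The GC box (GGGCGG) was in 32.7% of all windows and in 2 of the 12, those of Kansl2 and the first start of Papss2. The core of ETS sites (CCGGAAG) was in 6.91% of all windows and in 1 of the 12, that of Romo1. The E-box (CACGTG) was in 6.02% of all windows and the TATA box (TATAAA) in 12.4%, and neither was in any of the 12. These matches describe letters and do not show binding. The windows shown are those of Fam107a, a gene that stayed past the threshold in edgeR whichever 1 library was left out, of Hnrnpc, with 4 CCAAT boxes in 1 window, and of Kansl2, which differed in the opposite direction to most of the others. Each is trimmed to bases outside the exons of GENCODE M21, reads 5′ to 3′ on the gene's strand and has its motifs in capitals (ATTGG is CCAAT and CCGCCC is GGGCGG on the other strand).
Fam107a: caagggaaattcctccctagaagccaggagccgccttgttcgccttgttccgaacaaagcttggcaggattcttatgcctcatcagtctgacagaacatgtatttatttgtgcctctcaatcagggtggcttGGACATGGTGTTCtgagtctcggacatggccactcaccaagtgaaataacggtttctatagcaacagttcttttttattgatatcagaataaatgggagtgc
Hnrnpc: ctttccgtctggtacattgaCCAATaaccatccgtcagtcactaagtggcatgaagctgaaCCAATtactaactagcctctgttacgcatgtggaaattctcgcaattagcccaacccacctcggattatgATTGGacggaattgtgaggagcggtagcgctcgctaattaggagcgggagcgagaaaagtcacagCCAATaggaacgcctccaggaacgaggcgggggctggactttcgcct
Kansl2: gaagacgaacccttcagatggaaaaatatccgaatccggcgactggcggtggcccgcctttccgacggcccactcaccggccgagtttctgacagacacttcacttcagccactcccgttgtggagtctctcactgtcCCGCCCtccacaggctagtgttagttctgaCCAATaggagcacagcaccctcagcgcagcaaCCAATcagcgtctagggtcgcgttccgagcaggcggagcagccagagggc
In the same order they lie at chr14:8309796-8310029, chr14:52104029-52104271 and chr15:98534270-98534519, all on the minus strand. The windows of Fam107a and Kansl2 lie wholly inside the RefSeq spans of these genes, before starts within the span. For Romo1, only the 29 bases that hold both ETS cores are shown, at chr2:156144173-156144201 on the plus strand. They lie before the start in the RefSeq table but inside the RefSeq span of the gene and inside the first exon of a GENCODE M21 transcript of Romo1, so that they are annotated as transcribed.
Romo1: CCGGAAGtaactgcgctgtgctCCGGAAG

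All 10 are protein-coding genes in GENCODE M21. Their RefSeq spans (GRCm38.p6) are chr2:156144153-156145794 for Romo1, chr16:38445399-38452689 for Adprh and chr2:25706879-25707721 for Bmyc. Hnrnpc spans chr14:52073377-52104039 and Kansl2 chr15:98517658-98534770. Lrrtm1 spans chr6:77229210-77259915, Fam107a chr14:8296270-8317607 and Apbb1ip chr2:22755971-22875653. Papss2 spans chr19:32595669-32667187 and Igfn1 chr1:135953205-136040925. Where a read can be assigned bears on 5 of the genes. Of the 75-base stretches in the GENCODE transcripts of Bmyc, 59.8% also occur, on the other strand, in A230005M16Rik, an antisense gene that overlaps it. For Kansl2, 31.8% of stretches are shared with other genes, among them the pseudogene Kansl2-ps and a small nucleolar RNA within the gene. The shared percentage was 9.20% for Romo1, with the overlapping Nfs1 on the other strand, 4.67% for Hnrnpc, with 2 other genes, and 0.101% for Adprh. The other 5 genes shared none. The labels do not say whether the libraries keep the strand. Reads of the shared stretches of Bmyc and Romo1 could therefore not be separated from A230005M16Rik and Nfs1. Adprh and Lrrtm1 are also overlapped on the other strand, by D930030I03Rik and Ctnna2, but shared no 75-base stretch with the transcripts of these genes.

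Library totals lay between 7640047 and 13928265 counts, and a gene with 3 counts in a library then has between 0.215 and 0.393 CPM (the gene's counts scaled to a common library total, without a further factor). Mean prefrontal totals were 1.02e+07 and 9.89e+06 counts in WT mice on the normal and lacking diets. In KO mice on the same diets they were higher, at 1.21e+07 and 1.18e+07 counts. Glo1 had between 0 and 10 counts in the KO libraries and between 299 and 734 in the WT libraries, and no library went against its genotype label. Tests were edgeR quasi-likelihood F-tests on the counts, two-sided, with p-values adjusted over all genes tested by the Benjamini-Hochberg (BH) method and a threshold of 0.05. Fold changes are on the log2 scale and are given with their standard error (SE). Group values are means ± SD of CPM over 5 libraries. The labels name separate mice for the 5 libraries of a group.

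The comparison that chose the genes was KO-lacking mice against WT-normal mice in the prefrontal cortex, and its values are given as a description, without support drawn from them. In a fit of the 20 prefrontal libraries, 37 of 13223 genes passed the threshold (0.28%), 30 lower (0.227%) and 7 higher (0.0529%) in the KO-lacking mice. Of these 37 genes, 19 lie on chromosome 17 and 18 elsewhere. Among the 18 were 9 of the 10 genes described here, 7 lower and 2 higher. Adprh was the tenth and lay outside the threshold in this fit (adjusted p = 0.0655). The members closest inside were Igfn1 and Hnrnpc, both with an adjusted p of 0.0495, and the first gene outside was Skap1 at 0.0516 (edgeR, BH). The other 9 genes away from chromosome 17 that passed were Sparc, Rpl38, Rpl39, B2m, Rpl13, Sepp1, Uqcrq, Emc2 and Tdg.

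Among the genes of mitochondrial import and protein modification, Romo1 was measured in the prefrontal cortex at 17.9, 19.3, 23.3, 24.1 and 31.4 CPM in the 5 WT-normal mice and at 10.1, 11.01, 11.5, 13.2 and 15.9 CPM in the 5 KO-lacking mice. The groups in between had 13.8, 18.8, 18.8, 25.4 and 27.8 CPM (WT-lacking) and 13.4, 13.7, 16.2, 24.6 and 27.5 CPM (KO-normal). All 5 KO-lacking libraries lay below all 5 WT-normal libraries, while the KO-normal libraries were split into 3 low and 2 high values. The difference that chose the gene was -0.94 ± 0.20, the largest in size of the 10. Adprh had 59.6, 65.4, 65.9, 68.8 and 79.2 CPM in WT-normal mice and 44.2, 44.8, 44.9, 48.5 and 51.3 CPM in KO-lacking mice. Its remaining libraries had 50.8, 68.4, 72.2, 73.5 and 94.1 CPM (WT-lacking) and 47.5, 52.8, 53.04, 74.2 and 77.99 CPM (KO-normal). The KO-lacking mice were tightly grouped and lay below every WT mouse on the normal diet, and the same 2 KO-normal mice, 267 and 268, were high for both Adprh and Romo1. The Adprh difference was -0.56 ± 0.14.

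Of the genes of transcription, chromatin and RNA binding, Bmyc had 19.1, 20.5, 21.8, 24.2 and 25.3 CPM in WT-normal mice and 10.5, 11.2, 12.8, 14.1 and 16.5 CPM in KO-lacking mice. It had 15.1, 16.6, 19.8, 21.8 and 30.9 CPM in WT-lacking mice and 13.5, 15.04, 15.6, 20.9 and 21.2 CPM in KO-normal mice. The first pair of groups did not overlap and the second did, and mice 267 and 268 were again the high KO libraries. The Bmyc difference was -0.79 ± 0.17. Hnrnpc, by far the more abundant, had 273, 286, 292, 308 and 309.6 CPM and 224, 239, 241, 244 and 250.1 CPM in the same pair of groups. Its other libraries had 236, 261, 262, 275 and 279 CPM in WT-lacking mice and 245, 245, 248, 294 and 308 CPM in KO-normal mice. The difference of -0.32 ± 0.07 was the smallest of the 10, and mice 267 and 268 stood above the other KO mice here too. Kansl2 went the other way, with 6.598, 6.896, 7.499, 7.65 and 8.06 CPM in WT-normal mice and 11.5, 11.6, 12.4, 12.7 and 13.6 CPM in KO-lacking mice. In WT-lacking mice it had 6.32, 6.83, 8.48, 9.52 and 10.7 CPM, and in KO-normal mice 6.69, 7.67, 10.5, 11.5 and 11.8 CPM. Every KO library on the lacking diet was above every WT library on the normal diet, and mice 267 and 268 were the 2 low KO libraries. The Kansl2 difference was 0.73 ± 0.15.

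Among the remaining genes, Lrrtm1 had 37.7, 38.9, 40.98, 43.4 and 44.1 CPM in WT-normal mice and 27.3, 29.4, 30.1, 30.2 and 31.4 CPM in KO-lacking mice. WT-lacking mice had 37.2, 38.1, 40.6, 42.03 and 51.6 CPM and KO-normal mice 32.7, 33.1, 33.7, 35.9 and 41.5 CPM. The KO-lacking mice lay below all 15 other prefrontal libraries, and the difference was -0.49 ± 0.10. Fam107a, the most abundant of the 10, had 660.4, 672, 706, 879 and 967 CPM in WT-normal mice and 502, 534, 551, 561 and 629.8 CPM in KO-lacking mice. Intermediate values of 598, 633, 711, 734 and 740.4 CPM (WT-lacking) and 506, 547, 621, 623 and 719 CPM (KO-normal) overlapped both. Mice 283 and 317 gave the 2 highest values, well above the other 3 WT-normal mice, and the difference was -0.51 ± 0.09. Apbb1ip had 13.5, 13.8, 14.02, 17.6 and 18.8 CPM in WT-normal mice and 8.38, 9.77, 9.91, 10.3 and 11.1 CPM in KO-lacking mice. It had 9.403, 11.3, 11.7, 12.4 and 13.2 CPM in WT-lacking mice and 8.51, 9.08, 10.2, 10.6 and 12.5 CPM in KO-normal mice. For this gene the WT-normal mice stood above all 15 other libraries, so that the group that stood apart was the WT and not the KO one, and the difference was -0.67 ± 0.13. Papss2 had 24.9, 24.96, 27.002, 33.8 and 35.5 CPM in WT-normal mice and 17.97, 19.7, 21.1, 21.3 and 21.4 CPM in KO-lacking mice. The other groups had 24.3, 25.8, 28.4, 28.7 and 31.9 CPM (WT-lacking) and 18.9, 19.5, 22.8, 24.6 and 26.9 CPM (KO-normal). Both WT groups were above the KO-lacking mice without overlap, and the difference was -0.55 ± 0.12. Igfn1 had 9.12, 11.9, 16.3, 16.6 and 18.9 CPM in WT-normal mice and 18.9, 22.4, 23.1, 26.1 and 27.5 CPM in KO-lacking mice. In the remaining groups it had 12.1, 15.3, 16.9, 17.7 and 17.7 CPM (WT-lacking) and 13.4, 16.2, 17.7, 17.9 and 23.9 CPM (KO-normal). The highest WT library, mouse 283, and the lowest KO library, mouse 242, met at 18.9 CPM, so that Igfn1 was the 1 gene of the 10 whose groups touched. Its difference was 0.68 ± 0.15. Groups without overlap were found for the other 9 members and for 3.01% of all genes tested, a count the choice of the members fixes.

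**Figure D1:**
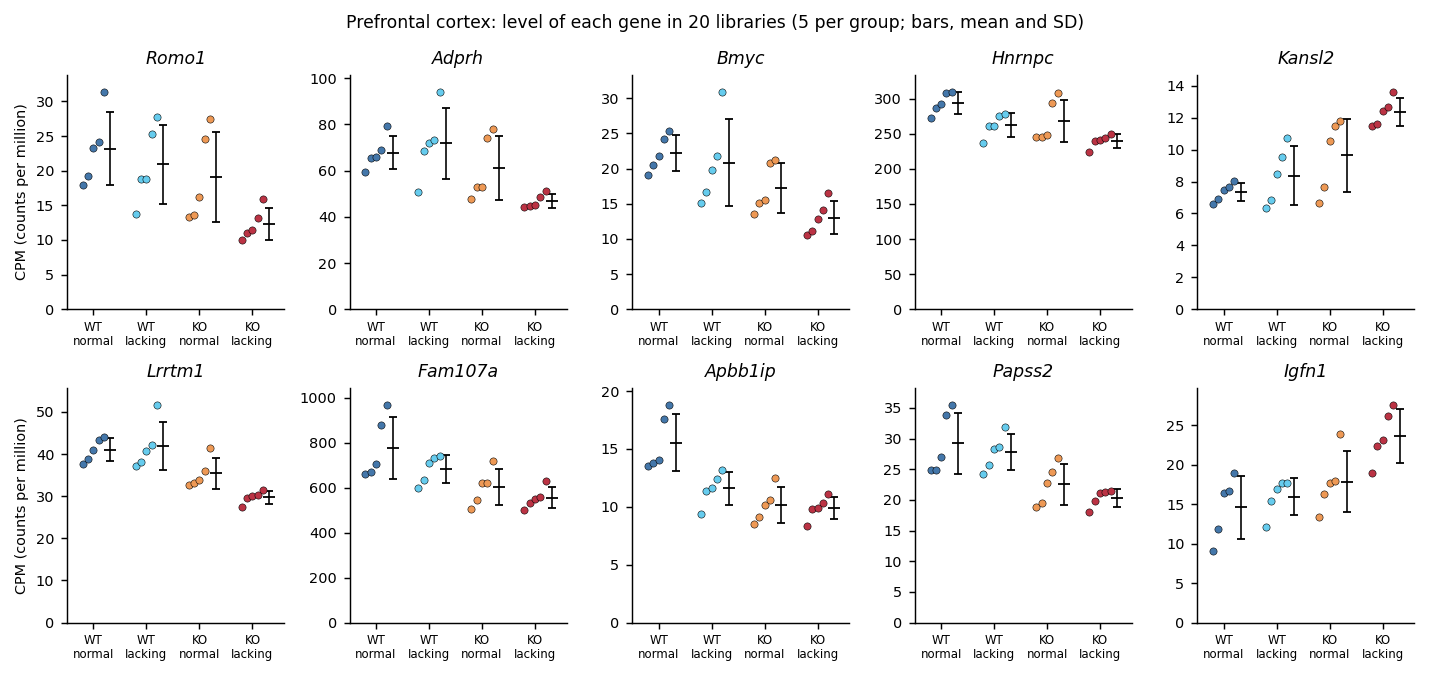
CPM of each gene (vertical axis, from 0) in the 20 prefrontal libraries, with 1 point per mouse sorted within its group, and the mean and SD beside it. KO-lacking mice are the lowest group for 8 genes and the highest for Kansl2 and Igfn1, and KO-normal mice are spread widely for Romo1, Adprh, Bmyc, Hnrnpc and Kansl2.

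How far these differences rest on single libraries was examined by leaving out each of the 10 compared mice in turn. No fold change of the 10 genes changed sign in any of the 10 fits. Fam107a passed the threshold in 10 of 10 fits, Apbb1ip in 7, Lrrtm1 in 6, Kansl2 in 4, Bmyc and Romo1 in 3, and Igfn1 and Papss2 in 2. Hnrnpc and Adprh passed in 0 of 10. The number of the 10 genes past the threshold fell to 2 without WT mouse 272, without WT mouse 317 or without KO mouse 325. It was 3 without KO mouse 339 or KO mouse 452, 4 without KO mouse 242, WT mouse 273 or WT mouse 286, 6 without KO mouse 244 and 7 without WT mouse 283. The calls over all genes moved as well. They were 37 in the full fit, and 20, 25 and 25 without mice 272, 317 and 325. They were 55 and 61 without mice 244 and 283, and between 22 and 31 in the other fits. Without mouse 272 the Romo1 difference was -0.81 (edgeR adjusted p = 0.130) and the Apbb1ip difference -0.59 (adjusted p = 0.0852). Without mouse 317 the Papss2 difference was -0.45 and the Lrrtm1 difference -0.45 (edgeR adjusted p = 0.147 and 0.0751). Without mouse 286 the Igfn1 difference was 0.56, and without mouse 283 the Fam107a difference was -0.43. Adjusted p-values over the 10 fits ranged from 0.00574 to 0.0428 for Fam107a and from 0.0527 to 0.147 for Hnrnpc (edgeR, BH). With DESeq2, without a filter on low counts, with the RNA integrity number (RIN) as a covariate, or with only the 10 compared libraries in the fit, all 10 genes passed, Adprh included. With limma on log2(RPKM + 1) 3 passed, Lrrtm1, Kansl2 and Apbb1ip, and on log2(RPKM + 0.1) also 3, Lrrtm1, Kansl2 and Bmyc. Fam107a thus passed on neither limma scale. Its 2 highest WT-normal values came from mice 283 and 317, which were not left out together, so that dependence on this pair was not tested.

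**Figure D2:**
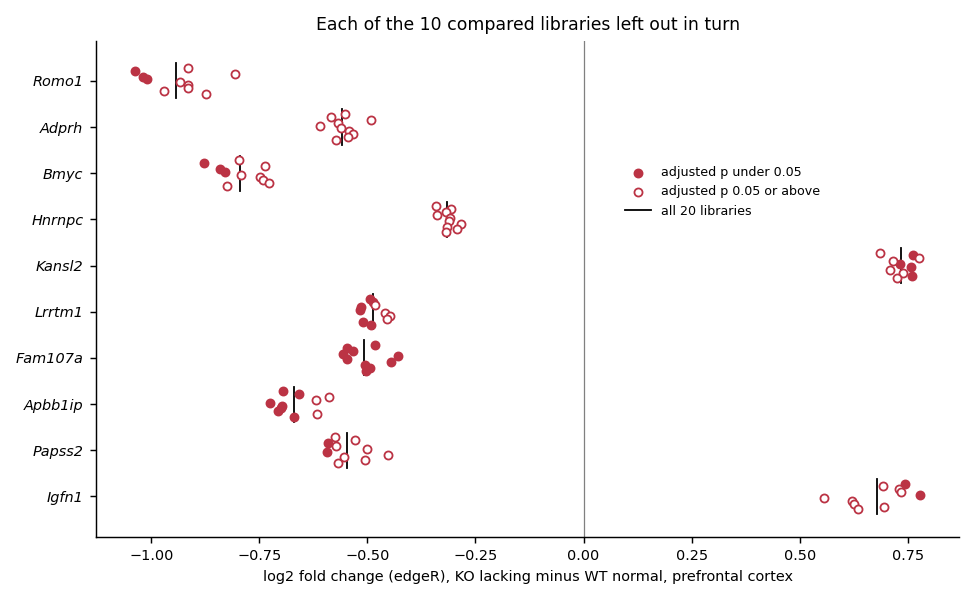
Log2 fold change of each gene in the prefrontal cortex, KO-lacking mice minus WT-normal mice (horizontal axis), with each of the 10 compared libraries left out in turn; filled points have an adjusted p under 0.05, and the vertical bars mark the fit of all 20 libraries. Every point lies on the same side of 0 as the bar, and all 10 points are filled for Fam107a and none for Hnrnpc and Adprh.

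The other prefrontal groups, KO-normal mice and WT-lacking mice, shared no library with that comparison, and the 10 genes were tested between them. None of the 10 passed the threshold (edgeR; 13 of 12903 genes passed, 0.101%). At an unadjusted p under 0.05 there were 3, Papss2, Lrrtm1 and Fam107a, against 3.78% of all genes tested. Papss2 differed by -0.30 ± 0.12 (edgeR adjusted p = 0.976), Lrrtm1 by -0.25 ± 0.11 and Fam107a by -0.19 ± 0.09, all lower in KO mice. Adprh (-0.24 ± 0.16), Bmyc (-0.28 ± 0.18), Apbb1ip (-0.19 ± 0.14), Romo1 (-0.13 ± 0.21), Kansl2 (0.17 ± 0.18) and Igfn1 (0.14 ± 0.14) had the sign of the first comparison, and Hnrnpc (0.02 ± 0.08) did not. The sign was thus that of the first comparison for 9 of 10 genes, and for 63.6% of all genes. Turned so that the sign of the first comparison is positive, the median difference was 0.19 for the 10 genes and 0.036 for all genes. The 10 genes are not separate observations, since several of them went up and down together within groups. They were also picked for large differences, which all genes were not. The 2 comparisons share no library, but each sets KO libraries of batch 1 against WT libraries of batch 2. The CPM of the 2 groups overlapped for all 10 genes, and failed to overlap for 0.674% of genes tested. The prefrontal interaction of genotype and diet includes the libraries that chose the genes and is therefore a description. It passed for 0 of the 10 genes and for 0 of 13223 (0%), and 2 of the 10 had an unadjusted p under 0.05, Adprh at -0.50 ± 0.19 (edgeR adjusted p = 0.9997) and Lrrtm1 at -0.31 ± 0.14, against 3.17% of all genes. With DESeq2, too, neither the comparison of the other groups nor the interaction gave a call among the 10.

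Averaged over both diets, which uses the libraries that chose the genes and is therefore a description, KO was below WT by -0.37 ± 0.07 for Lrrtm1, -0.35 ± 0.07 for Fam107a, -0.43 ± 0.09 for Papss2, -0.43 ± 0.10 for Apbb1ip, -0.54 ± 0.12 for Bmyc and -0.40 ± 0.10 for Adprh, and above it by 0.45 ± 0.11 for Kansl2. These 7 were past the threshold, as were 0.673% of all genes. The count was 3 without any 1 of mice 259, 272, 339, 381 or 390, and 4 without any 1 of mice 273, 317, 325 or 368. Averaged over both genotypes, the lacking diet gave 0 calls among all 13223 genes (0%), and the differences ran from -0.41 ± 0.14 for Romo1 to 0.28 ± 0.11 for Kansl2, all 10 with the sign of the first comparison, which shares its libraries. The diet comparison sets mice of both batches on each side.

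In the striatum of the same mice, the comparison of KO-lacking mice with WT-normal mice gave no call among the 10 genes (edgeR; 11 of 13311 genes passed, 0.0826%). Fam107a stood at -0.38 ± 0.12 (edgeR adjusted p = 0.8997) and Hnrnpc at -0.16 ± 0.07 (adjusted p = 0.915); these 2 had an unadjusted p under 0.05, against 5.06% of all genes. Striatal Fam107a was 451, 550.5, 555, 677 and 898 CPM in WT-normal mice and 439.96, 443, 446, 490.3 and 527 CPM in KO-lacking mice. As in the prefrontal cortex, mice 283 and 317 held the 2 highest values, and the lowest WT value lay among the KO ones. All 10 genes had the sign seen in the prefrontal cortex in this comparison, as did 57.7% of all genes, and the median difference in that direction was 0.18 for the 10 and 0.028 for all genes. The CPM of the 2 groups overlapped for all 10 genes, and failed to overlap for 0.729% of genes tested. Each mouse gave both regions, so that these are not further mice. Nor are the 10 signs separate observations, since several of the genes went up and down together within groups.

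The remaining striatal groups did not repeat this. Between KO-normal mice and WT-lacking mice, 0 of the 10 genes passed (edgeR; 0.0826% of all genes), 2 had the prefrontal sign (Fam107a and Papss2) and 8 the opposite, and 41.6% of all genes had the prefrontal sign. Lrrtm1 was 36.9, 38.5, 40.8, 43.9 and 44.8 CPM in WT-lacking mice and 42.3, 47.3, 49.5, 50.9 and 66.6 CPM in KO-normal mice. Higher in the KO group, with mouse 381 far above the rest, it differed by 0.38 ± 0.13 (edgeR adjusted p = 0.913) and was the 1 gene of the 10 with an unadjusted p under 0.05, against 3.92% of all genes. Papss2 was 48.7, 49.97, 51.3, 52.1 and 52.2 CPM in WT-lacking mice and 43.8, 44.6, 44.8, 45.3 and 47.7 CPM in KO-normal mice. The latter lay below the former without overlap, as for 0.759% of genes, but the difference was small at -0.12 ± 0.09 (edgeR adjusted p = 0.913). Bmyc, by contrast, was higher in the KO group at 0.50 ± 0.27 (edgeR adjusted p = 0.913), with mouse 381 at 31.2 CPM and the other 4 KO mice between 12.5 and 14.5 CPM. Without mouse 381 the Bmyc difference was 0.15 and that of Lrrtm1 0.24. Over both genotypes, all 10 genes had on the lacking diet the sign of the first prefrontal comparison, as did 65.2% of all genes, with 0 calls among all genes (0%). These diet differences follow by arithmetic from the 2 striatal comparisons above, so that their signs are no further observation. Of the 10 genes, 3 had an unadjusted p under 0.05 against 3.06% of all genes, Bmyc at -0.51 ± 0.19 (edgeR adjusted p = 0.9998), Lrrtm1 at -0.25 ± 0.09 and Hnrnpc at -0.13 ± 0.05. Without mouse 381 the first was -0.33. Over both diets, KO and WT differed by -0.21 ± 0.09 for Fam107a (edgeR adjusted p = 0.7399), with 0 of the 10 genes and 0.203% of all genes past the threshold. The striatal interaction gave no call among the 10 genes, of which 0 had an unadjusted p under 0.05, nor among all genes (edgeR; 0%). DESeq2 called 0 of the 10 in each of these striatal comparisons.

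Striatal group levels were as follows. Romo1 was 21.5 ± 6.65 in WT-normal mice, 17.5 ± 3.21 in WT-lacking mice, 19.9 ± 8.796 in KO-normal mice and 16.1 ± 8.27 in KO-lacking mice. Adprh was 45.7 ± 8.15 in WT-normal mice, 39.8 ± 4.997 in WT-lacking mice, 43.1 ± 12.8 in KO-normal mice and 39.3 ± 9.196 in KO-lacking mice. The single library of mouse 244 held the top value of the KO-lacking mice for both genes, and that of mouse 381 the top value of the KO-normal mice. Hnrnpc was 333 ± 26.4 in WT-normal mice, 311 ± 16.1 in WT-lacking mice, 322 ± 12.4 in KO-normal mice and 292 ± 24.7 in KO-lacking mice. Kansl2 was 8.69 ± 1.81 in WT-normal mice, 10.96 ± 0.879 in WT-lacking mice, 9.37 ± 2.25 in KO-normal mice and 9.72 ± 1.44 in KO-lacking mice. Apbb1ip was 14.6 ± 2.82 in WT-normal mice, 14.1 ± 1.58 in WT-lacking mice, 14.6 ± 1.33 in KO-normal mice and 13.4 ± 2.14 in KO-lacking mice. For these 3 genes the ranges of the 4 groups overlapped. Igfn1 was 1.68 ± 1.36 in WT-normal mice, 2.98 ± 2.35 in WT-lacking mice, 1.97 ± 1.01 in KO-normal mice and 1.69 ± 1.61 in KO-lacking mice, with single libraries from 0.322 to 6.06 CPM.

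The hippocampus gave no call among the 10 genes in any of its 5 comparisons. Between KO-lacking mice and WT-normal mice (edgeR; 2 of 13393 genes passed, 0.0149%), 6 of the 10 had the prefrontal sign, as did 50.3% of all genes. Fam107a alone had an unadjusted p under 0.05 there, at -0.22 ± 0.09 (edgeR adjusted p = 0.9997), against 3.62% of all genes. It was 611, 647, 688, 752 and 936 CPM in WT-normal mice and 593, 595, 605, 643 and 649 CPM in KO-lacking mice. Mice 283 and 317 again had the highest levels, and 2 of the other 3 WT mice lay within the range of the KO mice. Romo1 stood at 0.14 ± 0.31 and Adprh at 0.12 ± 0.20, both above 0. Between KO-normal mice and WT-lacking mice, 0.0523% of all genes passed, 5 of the 10 had the prefrontal sign, and the 10 differences lay between -0.11 ± 0.16 for Kansl2 and 0.30 ± 0.69 for Igfn1, none with an unadjusted p under 0.05. Over both diets (0.164% of all genes past the threshold) and over both genotypes (0%), 0 of the 10 had an unadjusted p under 0.05. In the interaction (0%), 1 of the 10 had an unadjusted p under 0.05, against 9.45% of all genes, which is near that share. It was Papss2 at 0.37 ± 0.14 (edgeR adjusted p = 0.514). There 0 of the 10 had the prefrontal sign, against 43.1% of all genes. DESeq2 called 0 of the 10 in each of the 5.

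Hippocampal groups overlapped in CPM for all 10 genes in both of the first 2 comparisons, and failed to overlap for 0.866% and 0.523% of genes tested. Romo1 was 22.4 ± 12.8 in WT-normal mice, 20.3 ± 7.95 in WT-lacking mice, 19.3 ± 3.47 in KO-normal mice and 24.7 ± 10.1 in KO-lacking mice, with single libraries from 9.96 to 42.0 CPM. Bmyc was 21.2 ± 10.3 in WT-normal mice, 18.02 ± 4.91 in WT-lacking mice, 17.8 ± 5.11 in KO-normal mice and 20.2 ± 6.59 in KO-lacking mice. Adprh was 53.7 ± 16.2 in WT-normal mice, 51.1 ± 14.1 in WT-lacking mice, 54.4 ± 10.01 in KO-normal mice and 58.1 ± 14.3 in KO-lacking mice. In these 3 genes mouse 286 gave the highest WT-normal value and mouse 242 the highest KO-lacking value. Lrrtm1 was 78.2 ± 22.5 in WT-normal mice, 75.01 ± 10.7 in WT-lacking mice, 71.4 ± 7.02 in KO-normal mice and 72.2 ± 12.03 in KO-lacking mice. Hnrnpc was 345 ± 28.7 in WT-normal mice, 325 ± 18.3 in WT-lacking mice, 336 ± 18.4 in KO-normal mice and 336 ± 36.5 in KO-lacking mice. Papss2 was 50.7 ± 8.1998 in WT-normal mice, 43.3 ± 5.16 in WT-lacking mice, 42.5 ± 2.61 in KO-normal mice and 44.6 ± 2.22 in KO-lacking mice. Its WT-normal mice had the highest mean of the 4 groups, with mice 317 and 283 on top. Kansl2 was 10.7 ± 2.74 in WT-normal mice, 11.2 ± 1.16 in WT-lacking mice, 10.5 ± 1.36 in KO-normal mice and 9.81 ± 1.93 in KO-lacking mice. Apbb1ip was 13.9 ± 3.19 in WT-normal mice, 12.03 ± 2.04 in WT-lacking mice, 12.4 ± 1.26 in KO-normal mice and 12.1 ± 1.22 in KO-lacking mice.

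**Figure D3:**
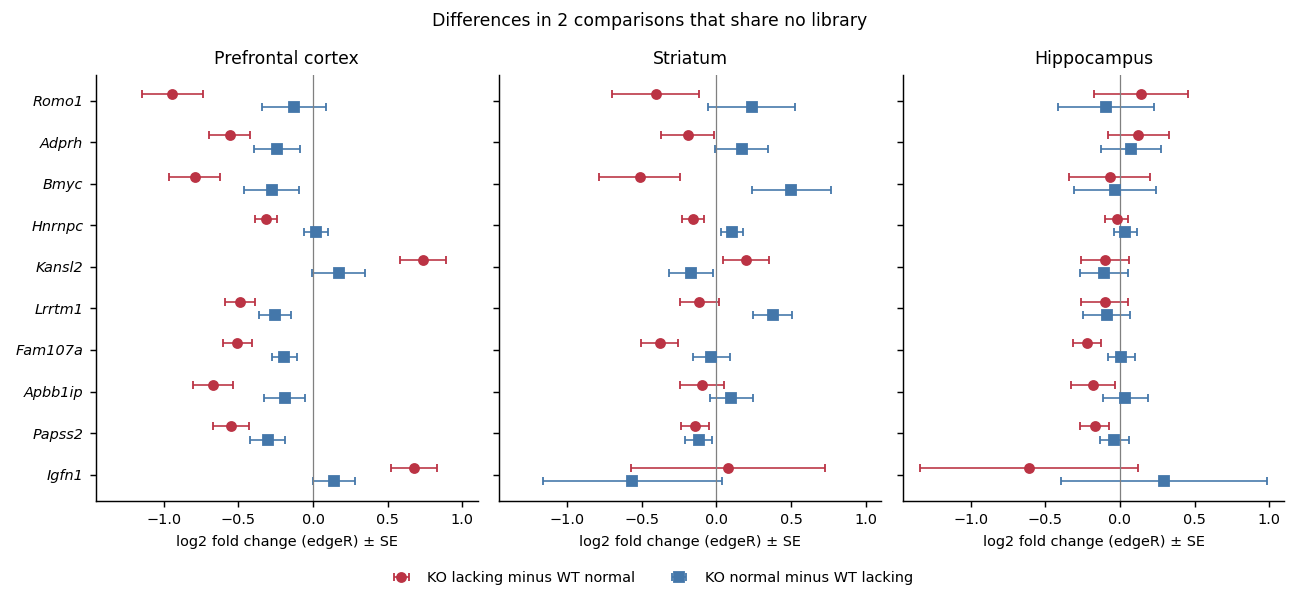
Log2 fold changes with their SE (horizontal axis) of the 10 genes in the 3 regions, for KO-lacking mice minus WT-normal mice (circles) and KO-normal mice minus WT-lacking mice (squares). The prefrontal circles are the values that chose the genes; the squares there lie on the same side of 0 for 9 of 10 genes, while in the striatum 2 of 10 squares lie on the prefrontal side, and the hippocampal values other than those of Igfn1 lie between -0.22 and 0.14.

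Whether the difference between KO-normal mice and WT-lacking mice was larger in the prefrontal cortex was tested in a fit of all 60 libraries. No gene of the 10 passed, nor did any of 13930 genes (edgeR; 0%), for the prefrontal cortex minus the striatum or minus the hippocampus. Against the striatum, 2 had an unadjusted p under 0.05 (4.76% of all genes), Lrrtm1 at -0.64 ± 0.20 (edgeR adjusted p = 0.855) and Bmyc at -0.79 ± 0.38. Without mouse 381 these were -0.47 and -0.39. Against the hippocampus there were 0 (2.12% of all genes). With DESeq2 and with the mouse as a replicate block, the count past the threshold was 0 as well.

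The levels of the genes across regions do not rest on the comparison of the groups and were tested in the same fit. Per length of the gene, Fam107a was the highest at 169 ± 30.8 RPKM in prefrontal cortex, 137 ± 28.1 in striatum and 169 ± 21.2 in hippocampus (SD over 20 libraries). Igfn1 was the gene with the strongest regional pattern, with 1.998 ± 0.528 RPKM in prefrontal cortex, 0.231 ± 0.1797 in striatum and 0.0697 ± 0.0603 in hippocampus. Its prefrontal level exceeded the striatal one by 3.11 ± 0.21 and the hippocampal one by 4.89 ± 0.25 on the log2 scale (edgeR adjusted p = 2.19e-20 and 1.60e-25), and the striatal one exceeded the hippocampal one by 1.78 ± 0.31. These Igfn1 differences depended on the scale: with limma they were 1.28, 1.47 and 0.19 on log2(RPKM + 1), and 2.81, 3.66 and 0.85 on log2(RPKM + 0.1), all past the threshold. The lowest prefrontal library had 9.12 CPM of Igfn1 and the highest striatal one 6.06 CPM, so that the 2 regions did not overlap. Papss2 had 6.87 ± 1.35 RPKM in prefrontal cortex, 13.5 ± 1.48 in striatum and 12.5 ± 1.58 in hippocampus. It was lowest in the prefrontal cortex, by -1.01 ± 0.05 against the striatum and -0.81 ± 0.05 against the hippocampus (edgeR adjusted p = 1.54e-25 and 1.07e-20). Lrrtm1 had 12.2 ± 2.01, 15.1 ± 2.51 and 24.5 ± 4.41 RPKM in the same order. It rose from the prefrontal cortex to the striatum and on to the hippocampus, where it was higher than in the prefrontal cortex by 0.96 on the log2 scale (SE 0.07, edgeR adjusted p = 1.51e-18).

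Hnrnpc, at 92.7 ± 9.29, 109.5 ± 8.57 and 117 ± 8.895 RPKM, was lower in the prefrontal cortex than in both other regions (-0.27 ± 0.04 and -0.28 ± 0.04 on the log2 scale), which did not pass between them. Adprh was highest in the prefrontal cortex at 39.1 ± 8.92 RPKM, against 26.5 ± 5.605 in the striatum (0.52 ± 0.10) and 34.3 ± 8.18 in the hippocampus (0.23 ± 0.09). The second of these Adprh differences (edgeR adjusted p = 0.0333) was lost without any 1 of mice 225, 241, 267, 268, 273, 317, 325 or 452, with adjusted p-values from 0.0530 to 0.0930. Fam107a was lower in the striatum than in both other regions, and Apbb1ip, at 1.59 ± 0.375, 1.91 ± 0.262 and 1.702 ± 0.279 RPKM, was higher there than in both. Bmyc had 18.6 ± 5.25, 14.7 ± 5.66 and 19.7 ± 6.76 RPKM. Its striatal level was below the prefrontal one (edgeR adjusted p = 0.0343) and the hippocampal one (adjusted p = 0.0163), but the first was lost without any 1 of mice 242, 267, 268, 317 or 390 (adjusted p from 0.0506 to 0.0784) and the second without mouse 242 or 286 (adjusted p = 0.0553 and 0.0698). Kansl2 (3.899 ± 0.994, 4.01 ± 0.725 and 4.36 ± 0.752 RPKM) and Romo1 (25.3 ± 8.47, 25.1 ± 9.16 and 29.04 ± 11.7 RPKM) did not pass between any pair of regions, but Kansl2 passed between prefrontal cortex and hippocampus without TMM factors (edgeR adjusted p = 0.0390) and with limma on log2(RPKM + 0.1) (adjusted p = 0.0473). In all, 8 of the 10 genes passed between prefrontal cortex and striatum, 5 between prefrontal cortex and hippocampus and 7 between striatum and hippocampus, against 69.9%, 59.3% and 66.4% of all genes. These counts are near the background and set the 10 genes apart from no others.

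**Figure D4:**
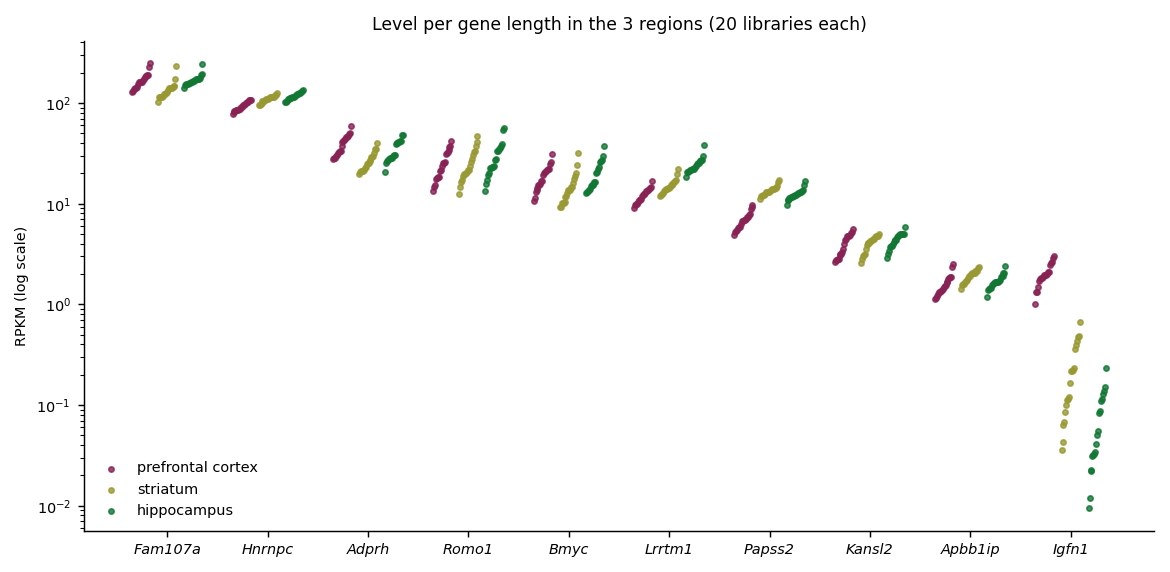
RPKM on a log axis of each gene in the 20 libraries of each region, 1 point per library sorted by value, with the genes ordered by their mean. Igfn1 separates the prefrontal cortex from both other regions (its 1 hippocampal library at 0 cannot be drawn), and Papss2 and Lrrtm1 are lowest in the prefrontal cortex.

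Within groups, several of the genes went up and down together from library to library. After the mean of each of the 12 groups was subtracted from log2 CPM (prior count 2), Romo1 correlated with Adprh at r = 0.90 and with Bmyc at 0.89, and Adprh with Bmyc at 0.89, over 60 libraries. Lrrtm1 followed the same 3 genes at 0.71 with Romo1, 0.73 with Adprh and 0.75 with Bmyc. Kansl2 ran against them, at -0.69 with Romo1, -0.67 with Adprh and -0.70 with Bmyc. Within the 20 prefrontal libraries alone, r was 0.88 for Romo1 and Adprh, 0.80 for Romo1 and Bmyc and -0.75 for Adprh and Kansl2. Fam107a had an r of 0.05 with Romo1 and 0.54 with Papss2, and Igfn1 had an r between -0.08 and 0.18 with each of the others over the 60 libraries. Within the 20 prefrontal libraries, where Igfn1 was highest, its r was -0.53 with Lrrtm1, -0.46 with Romo1, -0.41 with Bmyc, -0.37 with Adprh and 0.38 with Kansl2. These correlations describe libraries that share their preparation and total count, and 3 regions come from each mouse.

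**Figure D5:**
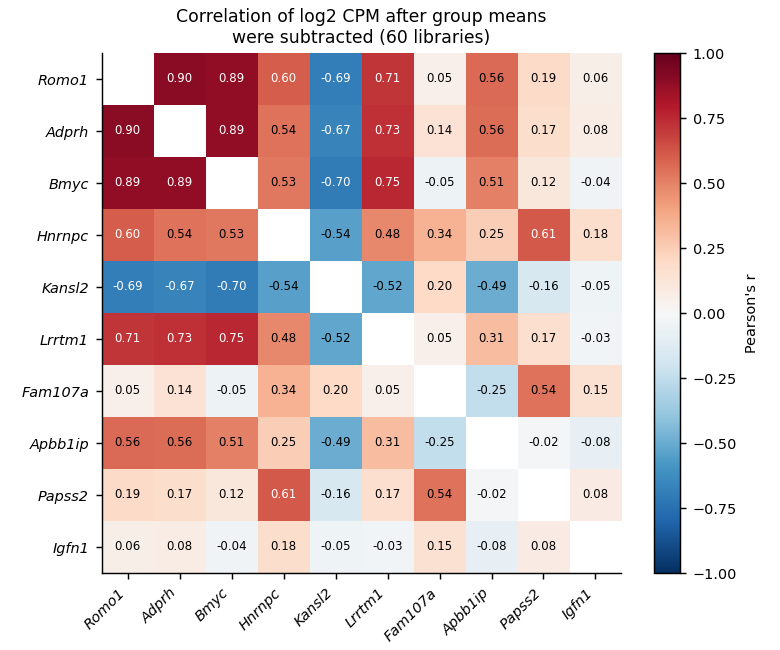
Pearson's r between each pair of the 10 genes over 60 libraries, from log2 CPM with the mean of each group subtracted (red positive, blue negative). Romo1, Adprh, Bmyc and Lrrtm1 form a block of positive values, Kansl2 is negative with all 4, and Igfn1 is near 0 with every other gene over the 60 libraries, though not within the prefrontal ones.

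Across 12847 genes, the one most like Romo1 in this measure was Rpl13, a ribosomal protein gene (r = 0.95, 60 libraries). Adprh and Bmyc were both most like Oaz1, which encodes an inhibitor of ornithine decarboxylase (r = 0.93 for each), and Lrrtm1 was most like Ndufa4, a gene of the respiratory chain (r = 0.83). Rpl13 and Sepp1 were also past the threshold in the comparison that chose the 10 genes. Kansl2 was most like Gnb1, a G protein subunit (r = 0.82). Hnrnpc was most like Ddah1 (r = 0.76), Papss2 like the endothelial receptor gene Adgrl4 (r = 0.75) and Fam107a like Sepp1, the gene of the selenium carrier selenoprotein P (r = 0.74). Apbb1ip was most like Rassf3 (r = 0.67) and Igfn1 like Igfbp2 (r = 0.62). The Igfn1 value rests in part on striatal and hippocampal libraries, where this gene was low at means of 2.08 and 0.627 CPM. RIN correlated within the prefrontal groups with Hnrnpc (r = 0.52) and Papss2 (r = 0.51) over 20 libraries, and with each of the other 8 genes at an r between -0.23 and 0.25. The means of RIN in the 4 prefrontal groups were 8.26 and 8.40 in WT mice on the normal and lacking diets and 8.38 and 8.54 in KO mice on them.

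The partners of the 10 genes were looked at in lists. In the comparison that chose the 10 genes, 0 of the 84 entries of 9 lists passed, and 14 had an unadjusted p under 0.05 (edgeR; 0.28% of all genes passed, and 13.0% had an unadjusted p under 0.05). Of 8 other members of the NSL complex of Kansl2, 6 were higher and 1 had an unadjusted p under 0.05, with a median of 0.07. Of 6 other LRRTM and neurexin genes, the family and partners of Lrrtm1, 1 was higher, with a median of -0.10. Of 6 other TIM23 genes 2 were higher (median -0.04), of 21 other hnRNP genes 8 (median -0.02), of 11 other genes of the Myc, Max and Mlx network 2 (median -0.07), and of 10 other genes of integrin activation by Rap1 4 (median -0.06). Of 12 other glucocorticoid-induced genes 5 were higher (median -0.03), of 5 other genes of PAPS synthesis and transport 3 (median 0.06), and of 5 other ADP-ribose hydrolases 1 (median -0.01). The median over all genes was 0.0034. In KO-normal mice against WT-lacking mice 0 of the 84 passed (edgeR; 0.101% of all genes). An unadjusted p under 0.05 was found for 2 (2.38%), against 3.78% of all genes. In the 5 striatal and 5 hippocampal comparisons of the groups 0 passed, as did between 0% and 0.203% of all genes. Between 0 and 8 entries (0% to 9.41%) had an unadjusted p under 0.05, against 1.70% to 9.45% of all genes. The ends of these ranges come from different comparisons. The 9.41% was found for KO against WT over both diets in the striatum, against 5.78% of all genes. The 9.45% of all genes belongs to the hippocampal interaction, where 7.14% of entries had such a p. Averaged over both diets in the prefrontal cortex, which uses the libraries that chose the genes and is a description, 1 of the 84 passed (0.673% of all genes). It was Mt2, a metallothionein gene of the glucocorticoid list, which fell by 0.62 in KO (edgeR adjusted p = 0.0492). There 16 of the 84 had an unadjusted p under 0.05, against 14.1% of all genes.

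Markers of cell types were measured beside the genes that are known from glia. The summed CPM of 10 astrocyte markers was 11539.8 ± 729.6 in WT-normal mice and 11253 ± 629 on the lacking diet, and 10548 ± 559.6 and 10352 ± 807 in KO mice on the same diets, in the prefrontal cortex. Of these 10 markers 2 were higher in the comparison that chose the genes (median -0.13). There 6 had an unadjusted p under 0.05, against 13.0% of all genes, and 0 passed, against 0.28% of all genes. Among the 6 was Fgfr3, which was higher at 0.29 (edgeR adjusted p = 0.250). The averages over both diets use the libraries that chose the genes and are a description. Over both diets Slc1a3, an astrocyte glutamate transporter, was lower in KO by -0.33 (edgeR adjusted p = 0.00678). No other astrocyte marker passed there, and 0.673% of all genes did. The 10 microglial markers summed to 405 ± 19.5 and 419 ± 15.1 CPM in WT mice on the normal and lacking diets, and to 381 ± 13.9 and 372 ± 26.9 CPM in KO mice. Over both diets P2ry12, a microglial purine receptor, was lower in KO by -0.38 (edgeR adjusted p = 0.0172), while C1qa, a complement gene, stood at 0.32 (edgeR adjusted p = 0.303). Of the 10 microglial markers 2 were higher over both diets (median -0.03) and 3 in the comparison that chose the genes (median -0.06). No astrocyte or microglial marker was at 0 in a whole group. The 8 endothelial markers summed to 326 ± 30.1 and 320 ± 21.1 CPM in WT mice on the normal and lacking diets. In KO mice on the same diets they summed to 316 ± 20.6 and 304 ± 35.3 CPM. The part of astrocytes, microglia and endothelial cells in the lower Fam107a, Apbb1ip and Papss2 was not tested. The 8 markers of striatal projection neurons had summed levels of 258 ± 22.2 and 279 ± 21.0 CPM in WT and 256 ± 16.2 and 266 ± 31.9 CPM in KO mice on the normal and lacking diets. Markers of cortical excitatory neurons summed to between 1581 and 1963 CPM in every prefrontal library.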

How the data were processed

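The authors deposited a table of whole-number read counts per gene and a table of RPKM values for the same 21999 genes and 60 libraries. Per the submitters' processing notes, STAR 2.7.1a, HTSeq 0.9.1 and the build mm10 were used; their settings and the strand setting of the counting are not given in the sources used here. Per the labels' protocols, RNA was poly(A)-selected from 2 µg of total RNA and read as single 75-base reads. For the 10 genes, each deposited RPKM value equalled the count divided by the column total and by a whole-number gene length, within 4.8e-13% over 60 libraries.

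Counts were fitted with edgeR 4.0.16 in R 4.3.3, with TMM factors, filterByExpr (minimum count 10, minimum total 15), quasi-likelihood F-tests and BH adjustment over all genes tested at 0.05. A mean per group was fitted within each region (20 libraries), for the prefrontal comparison of KO-normal with WT-lacking mice within its 10 libraries, and for differences between regions over all 60. All 10 genes passed the filter in each of these fits; under some alternatives for the hippocampus Igfn1 did not and has no value there. SEs were derived from the F statistics. Alternatives were DESeq2 1.42.0, limma 3.58.1 on log2(RPKM + 1) and log2(RPKM + 0.1), no TMM, no filter, a mean of at least 1 CPM, RIN as a covariate, only the compared groups, and each mouse left out; those for the prefrontal averages over both diets and over both genotypes were added after seeing the data.

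The 10 genes, the gene lists and the alternatives were chosen with earlier results of these data known. Named genes were the 10, Glo1, list and marker genes past the threshold, the gene most like each of the 10, and the genes of the comparison that chose them. The last were named after their values were seen, as were the markers C1qa and Fgfr3. The regions come from the same mice by label, so the mouse can serve as a replicate block. The mean correlation of residuals of the same mouse was 0.038, 0.044 and 0.078 in the 3 pairs of regions, and -0.0090, -0.0096 and -0.018 between other mice of a group. The code was tested on simulated data. The value of a single marker of striatal projection neurons is not reported here.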

Additional observations from a re-analysis of the deposited data

Results flagged for a closer look

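Of 120 groups of 5 libraries (10 genes in 12 groups), 5 held a library far from the other 4 by Dixon's test at the 95% level. Chance gives about 6. In the striatum of KO mice on the lacking diet, mouse 244 had 55.2 CPM of Adprh, with the other 4 between 32.6 and 38.8 CPM, and 18.6 CPM of Bmyc, with the others between 9.06 and 11.6 CPM. In the striatum of KO mice on the normal diet, mouse 381 had 31.2 CPM of Bmyc, with the others between 12.5 and 14.5 CPM. Lrrtm1 stood at 117 CPM in the hippocampus of WT mouse 286 on the normal diet, with the others between 62.7 and 77.7 CPM, and at 60.3 CPM in the striatum of WT mouse 283, with the others between 42.3 and 47.1 CPM. None of the 5 lay in the prefrontal cortex. Romo1 was highest of its group in the same libraries of mice 244, 381 and 286.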

How the results depend on the processing

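In the comparison that chose the genes, the number of the 10 past the threshold was 9, and it was 3 with limma on log2(RPKM + 1) and 3 with limma on log2(RPKM + 0.1); leaving out 1 library each gave 2 to 7, and the other 6 alternatives gave 7 to 10. Over all genes the calls there were 37, against 142 with DESeq2, 111 with only the compared groups, 95 with RIN as a covariate, 81 without a filter and 21 with limma on log2(RPKM + 1). With 1 library left out they were 20 to 61. For KO against WT over both diets in the prefrontal cortex, alternatives chosen after seeing the data gave 4 with limma on log2(RPKM + 0.1) and 6 to 9 otherwise, against 7, and 3 to 9 with a library left out; over all genes the calls were 89, against 230 with DESeq2 and 189 with RIN. In each of the other comparisons of the groups the count among the 10 was 0 under each alternative run and with each mouse left out. Between regions the counts were 7 to 8 (prefrontal cortex and striatum), 4 to 5 (prefrontal cortex and hippocampus) and 6 to 7 (striatum and hippocampus) with a mouse left out, and with the mouse as a replicate block, a paired analysis, they were 8, 5 and 7; the block gave 0 for both differences between regions and changed no call. No paired analysis was possible within a region because each mouse gave 1 library there. Adprh between prefrontal cortex and hippocampus did not pass with DESeq2 (adjusted p = 0.0543), without TMM or with limma, Bmyc between striatum and hippocampus did not pass with RIN (adjusted p = 0.0703), Hnrnpc between those regions passed without TMM (adjusted p = 0.0101) and with limma, and Kansl2 between prefrontal cortex and hippocampus passed without TMM (adjusted p = 0.0390). Of 4903 gene values under an alternative, 258 of values not called changed sign and 0 of the 911 called ones did; the cause was not tested. Low counts limit Igfn1 outside the prefrontal cortex.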
